A study of Mus musculus with 21 samples.

Results

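The A/T-only 8-mers are the sequences of 8 bases that hold adenine and thymine alone, so that neither of their strands carries a cytosine that could be modified. They were chosen by sequence alone and numbered 255 of the 65535 8-mers with a score. Of the 256 possible ones, the 8-mer of 8 adenines was not analysed here. The study used 21 protein binding microarrays, on which spots of double-stranded DNA are bound by a tagged protein and scanned. The protein of an array was the bZIP DNA-binding domain of CREB1, of CEBPB, or of the single-residue mutants CEBPB(V285A) and CREB1(A297V), always with a GST tag and expressed in vitro (organism label Mus musculus). The strand made on the array carried plain cytosine (C), or in its place 5-methylcytosine (5mC) or 5-hydroxymethylcytosine (5hmC), and the printed strand was unmodified. The 10 groups were CREB1 on C (2 arrays), 5mC (1 array) and 5hmC (2 arrays), CEBPB(V285A) on C, 5mC and 5hmC (2 arrays each), CREB1(A297V) on C and 5mC (2 arrays each) and on 5hmC (4 arrays), and CEBPB on 5hmC (2 arrays). All used one array design, HK, and the proteins were isolated domains without partner proteins or chromatin.

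Proteins of the bZIP class bind DNA as dimers, each partner reading a half-site of a short palindrome through a basic helix in the major groove. CREB1 is known for the CRE palindrome built from TGAC and GTCA half-sites, C/EBP proteins for half-sites of the type TTGC and GCAA, and the related PAR factors for TTAC and GTAA. The outer TTA and TAA of the PAR palindrome are themselves A and T, while the central bases of all of these sites usually hold C and G. Stretches of A or T also have a narrow minor groove and bend differently from mixed DNA. An A/T-only 8-mer has no cytosine of its own, so a difference between cytosine forms at it is a difference in the bases around it on the probe, in the rest of the array or between arrays.

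The sequences below show the 8-mers on which the results turn, as the synthesised strand from 5′ to 3′. The first is the one that CEBPB(V285A) scored highest on C and 5hmC, the next 3 complete the set with TTA at the start and TAA at the end, and the others mark the 2 ends of the adenine scale and the largest changes.
Highest with CEBPB(V285A), self-complementary: TTATATAA
Same ends: TTATTTAA
Same ends: TTAAATAA
Same ends, self-complementary: TTAATTAA
Rich in A, highest with CREB1 on C: AAAAATAA
Rich in A: AATTAAAA
T alone: TTTTTTTT
Higher with CEBPB(V285A) on 5hmC than on C: ATATAATA
Higher with CEBPB(V285A) on 5hmC than on C: ATAATAAT
Higher with CEBPB(V285A) on 5mC than on C: ATAATTTT
Higher with CEBPB(V285A) on 5mC than on C: TAATATTT

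The central 8-mer, TTATATAA, stood in 17 probes of 35 variable bases. Of these, 12 are shown, with the 8-mer in capitals, to let its neighbouring bases be compared: the 6 brightest with CEBPB(V285A) on C in descending order, the other 3 with a purine (A or G) just before the 8-mer, and 3 with a pyrimidine (C or T) there.
Bright, 1: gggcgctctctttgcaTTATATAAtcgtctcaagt
Bright, 2: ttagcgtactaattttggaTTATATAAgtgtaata
Bright, 3: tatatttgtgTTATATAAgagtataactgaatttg
Bright, 4: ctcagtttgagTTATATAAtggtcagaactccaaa
Bright, 5: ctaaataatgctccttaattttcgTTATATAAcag
Bright, 6: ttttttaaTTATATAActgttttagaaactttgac
Dim, purine before: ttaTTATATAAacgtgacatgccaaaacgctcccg
Dim, purine before: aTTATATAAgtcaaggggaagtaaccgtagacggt
Dim, purine before: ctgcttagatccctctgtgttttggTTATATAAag
Dim, pyrimidine before: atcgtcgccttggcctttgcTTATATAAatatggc
Dim, pyrimidine before: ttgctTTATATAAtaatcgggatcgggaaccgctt
Dim, pyrimidine before: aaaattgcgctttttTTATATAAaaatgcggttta

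The score was the authors' deposited Z-score, which places an 8-mer relative to the others of the same array and is not an affinity. The median signal of an array ran from 76 to 2357.5 intensity units. Replicate arrays correlated at r 0.663 to 0.889 across the 255 members in the groups of 2 arrays. Among the 4 CREB1(A297V) 5hmC arrays r was 0.0741 to 0.491, and 3 of them had 25.1% to 56.1% of their spots not above local background. On CREB1(A297V) 5mC replicates 1 and 2 this share was 23.1% and 16.2%. The file names carry a number, called the run number here, and the labels do not say what it stands for. A set of 9 arrays had 470, and it held every CREB1 and CREB1(A297V) array on C and 5mC and CREB1(A297V) 5hmC replicates 1 and 2. CEBPB(V285A) had run 457 on C, 458 on 5mC and 534 on 5hmC, so for this protein the run and the form of cytosine cannot be told apart. CEBPB and CREB1 on 5hmC had run 535, and CREB1(A297V) 5hmC replicates 3 and 4 had 492 and 534. The labels do not say whether replicate arrays used separate batches of protein, so p-values measure only the spread between these arrays.

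Each member was carried by 12 to 22 probes (median 17, as over all 8-mers). A total of 2229 probes, 5.53% of 40330, held at least 1 member. Their G+C content was 40.1% against 50.03% over all probes, and they held a mean of 6.80 cytosines on the synthesised strand against 8.42. None was free of cytosine: the probes of a single member had a mean of 4.69 to 8.59. The A/T-only 8-mers were therefore measured inside probes that did carry modified cytosine on the 5mC and 5hmC arrays.

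The A/T-only 8-mers scored above the rest of the sequences in all 21 arrays. Their median Z-score was between 0.441 (CREB1 5mC) and 2.12 (CEBPB(V285A) 5hmC replicate 1), while the median over all 8-mers lay within 0.001 of 0. From 63.5% to 99.2% of the members were above 0, against 47.5% to 49.9% of the other 8-mers. The median fell at each added G or C from 0 to 6 in 19 of the 21 arrays: with 1 G or C it was 0.214 to 1.46, with 2 it was 0.169 to 0.906, and with 6 it was -0.660 to -0.232. In those 19 arrays the members thus stood at the top of a graded series by base composition. On CREB1(A297V) 5mC replicate 2 their median was 0.551, against 0.647 with 1 G or C. On CREB1(A297V) 5hmC replicate 2 it was 0.735 against 0.743.

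The mean over the members differed between groups by more than between replicates in some cases. It was highest with CEBPB(V285A) on 5hmC, 2.65 ± 0.432 (SD, n = 2), followed by CEBPB on 5hmC, 1.68 ± 0.178 (n = 2), and CREB1(A297V) on 5hmC, 1.48 ± 0.452 (n = 4). On C it was 1.36 ± 0.0674 with CEBPB(V285A), 1.23 ± 0.265 with CREB1(A297V) and 0.900 ± 0.193 with CREB1 (n = 2 each). With CEBPB(V285A) on 5mC it was 1.28 ± 0.0420, with CREB1 on 5hmC 1.08 ± 0.0322, with CREB1(A297V) on 5mC 0.804 ± 0.254 (n = 2 each), and on the single CREB1 5mC array 0.459. The arrays of CEBPB(V285A) on 5hmC, at 2.35 and 2.96, lay above all others. Among the other groups the 4 CREB1(A297V) 5hmC arrays alone spanned 0.875 to 1.93, so most neighbours in this order overlapped.

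A second pattern followed adenine number and differed between runs, which largely coincide with the form of cytosine. Runs 535 and 534 held 5hmC arrays alone, and every C and 5mC array lay in run 470, 457 or 458. The only 5hmC arrays outside runs 535 and 534 were CREB1(A297V) replicates 1, 2 and 3. Apart from these, run and form cannot be told apart in this pattern. On the 9 arrays of run 470 the Z-score rose with the number of adenines (Pearson r across the 255 members 0.375 to 0.659), and on the 4 arrays of run 535 it fell (-0.282 to -0.117). Members share probes, so these correlations are descriptions. The 36 members with 6 or 7 adenines exceeded the 37 with at most 2 by 1.54 to 3.01 Z-score units in run 470, by 1.22 and 1.43 in run 457 and by 0.969 and 1.08 in run 458. In runs 535 and 534 they were lower, by -0.719 to -0.413 and by -0.505 to -0.0507. The 8-mer of T alone, TTTTTTTT, scored between -2.48 and -0.0247 in run 470 and between 0.973 and 4.64 in run 535.

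The adenine pattern differed within a single group whose arrays carried several run numbers. CREB1(A297V) on 5hmC had a correlation with adenine number of 0.375 and 0.453 on its arrays of run 470, of 0.287 on the array of run 492 and of -0.190 on the array of run 534. TTTTTTTT scored -0.261, -0.0247, 1.57 and 3.87 on those arrays in the same order. Protein and cytosine form were the same on these 4 arrays. The arrays of runs 470 and 492 in this group are the 3 with many spots not above local background. Where compared groups lie in different runs, this is said beside the result, and its part was not tested beyond the settings named.

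Long runs of a base followed the same split only in part. On run 470 the members with longer A runs scored higher up to a run of 4: those whose longest A run was 1 base had array means of -0.174 to 0.759, and those with 4 had 1.08 to 2.38. For T runs the order was opposite, with 1.23 to 2.24 at a longest T run of 1 base and -0.243 to 0.707 at 4. On run 535 the 28 members with a longest T run of 4 had means of 0.906 to 2.02 and the 28 with a longest A run of 4 had 0.713 to 1.93, ranges that overlap. The 19 members that hold AAAAA averaged 1.64 ± 0.328 with CREB1 on C and 0.524 ± 0.0213 on 5hmC, and the 20 that hold TTTTT averaged -0.201 ± 0.0392 and 0.876 ± 0.188 (n = 2 each). With CEBPB on 5hmC, also of run 535, these lists averaged 1.74 ± 0.0712 and 2.06 ± 0.300 (n = 2). There the mean was 1.54 at a longest A run of 1, 2.40 at 5 and 0.564 at 6.

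Orientation showed the same asymmetry. In 92 of the 119 pairs formed by a member and its reverse complement, the adenine numbers differ. The adenine-rich member of such a pair was the higher one in 65 to 78 pairs on the arrays of run 470, in 24 to 36 on those of run 535 and in 36 to 42 on those of run 534. Over all 119 pairs the Z-scores of both orientations correlated at r -0.384 to 0.648. The highest values, 0.648 and 0.526, belonged to CEBPB(V285A) on 5hmC. The other 8-mers gave 0.120 to 0.796 over 32111 pairs.

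The leading members differed between some of the groups. They are given here without any that is the reverse complement of a higher one or shares 7 bases in a row with it. Before this rule, AAAAATAA, AAAATAAA and AATAAAAA held ranks 1 to 3 with both CREB1 and CREB1(A297V) on C, all of run 470. With CREB1 on 5hmC, of run 535, AAAAATAA had rank 115, and run and form cannot be told apart there. CREB1 on C was led by AAAAATAA (5.07 ± 0.423), AATAAAAA (4.18 ± 1.65) and AATTAAAA (3.68 ± 0.0204), which had ranks 1, 3 and 5 among the members, and the first ranked 696 among all 8-mers. CREB1(A297V) on C was led by AAAATAAA (6.04 ± 0.901), AATAAAAA (5.07 ± 0.476) and AATTTAAA (4.24 ± 0.966), at ranks 1, 3 and 6, and on 5mC by the same 3 at ranks 1 to 3, with 3.79 ± 0.620, 3.52 ± 0.0658 and 3.32 ± 0.322 (n = 2 each). On 5hmC it was led by AATAAAAA (5.55 ± 1.80), AAAATAAA (4.43 ± 3.30) and AATATTAA (4.26 ± 2.22, n = 4 each), at ranks 1, 3 and 4. The CREB1 5mC array also led with AAAAATAA, at 5.04. These leaders were rich in adenine. On 5hmC, CREB1 was led by ATATTTAT (4.10 ± 0.179), TTTAATTA (3.81 ± 0.165) and TAATAATA (3.34 ± 0.400), at ranks 1, 2 and 4. CEBPB on 5hmC, of the same run, was highest at AAATAATA (5.12 ± 1.00), TTAATTAT (5.07 ± 1.12) and AATTATAA (5.01 ± 0.0119), all n = 2, of which the first has 6 adenines and the third 5, against the negative trend with adenine number on its arrays. CEBPB(V285A) was highest at TTATATAA on C and 5hmC, described next, and at TAATATTT on 5mC (6.16 ± 1.04, n = 2). These were modest scores beside the best G/C-containing sites: the highest Z-score of an array ran from 15.7 to 256.

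CEBPB(V285A) departed from the other proteins at TTATATAA. On C its arrays gave 18.1 and 11.9, on 5mC 4.02 and 5.26, and on 5hmC 42.5 and 25.1. With CREB1 the same 8-mer scored 0.0545 and 0.0138 on C, -0.682 on 5mC, and 2.03 and 1.71 on 5hmC. With CREB1(A297V) it scored 1.43 and 1.66 on C, 1.25 and 0.525 on 5mC, and 3.51, 0.951, 1.80 and 3.89 on 5hmC, and with CEBPB on 5hmC 2.83 and 3.93. All 6 CEBPB(V285A) arrays lay above the 15 arrays of the other proteins, and the 5hmC, C and 5mC arrays of CEBPB(V285A) did not overlap. TTATATAA ranked 26 of all 65535 8-mers with CEBPB(V285A) on 5hmC (33.8 ± 12.3), 327 on C (15.0 ± 4.39) and 1468 on 5mC (4.64 ± 0.875, n = 2 each), and 31816 with CREB1 on C.

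Compared with its wild type on 5hmC, CEBPB(V285A) was higher at TTATATAA by 30.4 (SE 3.66, limma adjusted p 0.00049 over all 8-mers). Against its own arrays on C, the 5hmC arrays were higher by 18.8 (SE 3.66, limma adjusted p 0.0052), with the adjusted p at 0.071 when CEBPB(V285A) C replicate 2 was left out and the difference at 10.1 without 5hmC replicate 1. The difference from CREB1 on C, 15.0, did not pass the threshold (SE 3.66, limma adjusted p 0.089). The fit shares a single spread per 8-mer across groups, and the 2 CEBPB(V285A) 5hmC arrays were the farthest apart: without replicate 1 or 2 of that group the SE became 1.54 or 1.58 and the limma adjusted p 0.00028 or 0.00033. The difference between 5mC and C with CEBPB(V285A), -10.4, did not pass either (limma adjusted p 0.14). In each of these comparisons the groups lay in different runs. The run therefore cannot be told apart from the protein or the form of cytosine.

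The members that differ from TTATATAA by a single exchange of A and T scored far lower with CEBPB(V285A) on C and 5hmC. The 8 such neighbours had group means of 1.58 to 3.59 with CEBPB(V285A) on C and of 3.55 to 8.53 on 5hmC. Those that kept both ends were TTATTTAA, at 2.02 ± 1.31 on C and 6.57 ± 0.0869 on 5hmC, and TTAAATAA, at 2.81 ± 0.291 and 6.10 ± 1.48. TTAATTAA, which differs at both central bases, scored 1.28 ± 0.300 and 2.89 ± 0.273 (n = 2 each). On 5mC the gap was smaller: TTATATAA was at 4.64 ± 0.875, TTATTTAA at 3.81 ± 0.198 and TTAAATAA at 2.38 ± 0.244 (n = 2 each). TATATATA and ATATATAT, the fully alternating 8-mers, stayed between -0.157 and 3.12 on the 6 CEBPB(V285A) arrays, so alternation alone did not go with a high score.

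Set among the 16 sequences with TTA and TAA at the ends and any 2 bases between, TTATATAA had rank 4 with CEBPB(V285A) on C and 5hmC and rank 5 on 5mC. On C it followed the PAR palindrome TTACGTAA (241 ± 13.2), TTACATAA (64.6 ± 6.91) and its reverse complement TTATGTAA (38.3 ± 4.76). On 5hmC TTATGTAA was at 158 ± 66.2, TTACGTAA at 118 ± 17.6 and TTACATAA at 43.1 ± 9.02, and on 5mC they were at 35.1 ± 0.832, 83.3 ± 8.59 and 30.8 ± 11.1 (n = 2 each). TTATATAA thus had the highest score among the 4 of these 16 that hold no G or C, on each form of cytosine with CEBPB(V285A), and the 3 others ranked 7 to 16.

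The individual probes with TTATATAA were uneven in signal. Over the 17 probes with TTATATAA, the signal on the CEBPB(V285A) C arrays ran from 722 to 24679, against array medians of 735 and 738, and 9 and 10 of the 17 exceeded 2 times the array median. On the CREB1 C arrays, 1 of the 17 did so on each, and on the CREB1(A297V) arrays of every form and the CREB1 arrays on 5mC and 5hmC 0 did. Wild-type CEBPB on 5hmC had 5 and 3 such probes, at array medians of 580 and 538. On the CEBPB(V285A) 5hmC arrays 15 and 16 of the 17 did, at array medians of 295 and 292, and on the 5mC arrays 8 and 9.

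Signal was split by the base before the 8-mer, a feature chosen after the values were seen and therefore not tested. The 6 brightest probes on C all had A or G there. The 9 probes with such a purine had a median signal of 5990 with CEBPB(V285A) on C (range 1146 to 20684), and the 8 others, 1 of which opens with the 8-mer, had 1416 (820 to 3134). On 5hmC the medians were 7424 and 860, and on 5mC 6832 and 1290. With CREB1 they were 1624 and 1353 on C and 2381 and 1725 on 5hmC, and with CEBPB on 5hmC 840 and 858. In each case these are medians over probes of the group mean. Relative to the array median, the 9 purine-preceded probes stood at 8.63 and 7.64 times on the CEBPB(V285A) C arrays, at 4.63 and 8.74 on 5mC and at 16.5 and 16.4 on 5hmC, against 1.79, 1.87, 1.24, 1.51, 3.53 and 2.40 for the other 8 on the same arrays. On the CREB1 5hmC arrays they stood at 1.54 on both, against 1.19 and 1.13.

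Among the purine-preceded probes, the base after the 8-mer also went with the signal, a split likewise made after the values were seen. TTATATAA is its own reverse complement, so a purine before it on one strand is a pyrimidine after it on the other, and a probe can have both features, 1 or neither. With CEBPB(V285A) on C the 4 probes with a purine before and a pyrimidine after were all bright (5802 to 20684, median 6336), while the median was 1459 for the 9 with 1 of these features (843 to 10570) and 1418 for the 4 with neither (820 to 3134). On 5hmC the medians were 9221, 965 and 957, and on 5mC 11171, 1928 and 1270. The probes with 1 feature were of unlike kinds. Those with only the pyrimidine after had 843 to 1601.5 on C, and those with only the purine before had 1146 to 10570. All 3 dim purine-preceded probes were followed by a purine, as were bright probes 2 and 3. The 3 dim purine-preceded probes held the 8-mer at positions 4, 2 and 26, counted from 1 at the 5′ end of the synthesised variable part, with signals of 2592, 1150 and 1146 on C, while the bright 6 held it at positions 9 to 25. The brightest probe, at 20684 on C, 24748 on 5mC and 9158 on 5hmC, also carried ATAATCGT, which overlaps the 8-mer by 4 bases and scored 19.2 on C. Bright probes 2, 3, 5 and 6 held no other 8-mer above 6.34 on C, among those that overlapped TTATATAA by at most 4 bases.

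The fall of the TTATATAA Z-score on 5mC was smaller in the probe signals. The median of the 17 probes was 2.58 and 2.15 times the array median on C and 1.81 and 2.10 times on 5mC. On 5hmC the median was 4.64 and 3.60 times the array median. In raw signal, 3 of the 6 brightest probes were higher on 5mC than on C. The arrays as a whole were brighter too, with medians of 981 and 922 on 5mC against 735 and 738 on C, so this count is not a relative measure. A median over 17 probes of which about 9 were bright lies near the boundary between the bright and the dim set.

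Across the A/T-only 8-mers, the largest set of changes in the fit reported here was the rise with CEBPB(V285A) from C to 5hmC. In this comparison 43 of the 255 members rose and 0 fell, while 2.36% of all 8-mers were called higher and 4.90% lower (7.26% in either direction; limma adjusted p under 0.05). The rises ran from 1.27 to 18.8 Z-score units with a median of 3.56. Over all 255 members the median difference was 0.888, against 0.00312 over all 8-mers, and 203 members were above 0. Runs 534 and 457 hold these arrays, so the run and the form of cytosine cannot be told apart here. That this set was the largest depended on the scale. On the asinh scale and on both kinds of probe medians, CREB1 from C to 5hmC had more called members than CEBPB(V285A).

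The share of 8-mers that rose in this comparison fell step by step with G and C content. It was 16.9% of the A/T-only 8-mers, 10.8% of the 1024 8-mers with 1 G and no C, 6.93% of the 1024 with 1 C and no G, 5.51% of those with 2 G or C, 3.00% with 3 and 1.19% with 4 or more. The share that fell went the other way, from 0% over 0.195% and 1.17% to 2.29%, 4.35% and 5.77%. The A/T-only 8-mers stood at the upper end of this gradient. On the arrays of run 534, which include CREB1(A297V) 5hmC replicate 4, the fitted Z-score per C in place of a T was -0.481, -0.418 and -0.358, and on those of run 457 it was -0.197 and -0.206. Leaving out CEBPB(V285A) C replicate 1 or 2 gave 23 or 19 called members, and leaving out 5hmC replicate 1 gave 26. With base composition regressed out of every array, 40 members were called, but there were 10 on the asinh scale, 19 after quantile normalization, 21 and 20 on probe medians with normexp and with dim spots removed, and 16 with run as a random block.

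After TTATATAA, the named members with the largest rises were ATATAATA and ATAATAAT. ATATAATA scored 3.19 and 2.70 on C and 12.8 and 8.12 on 5hmC, a rise of 7.51 (SE 1.08, limma adjusted p 0.00049). ATAATAAT scored 1.55 and 1.93 on C and 8.07 and 9.10 on 5hmC, a rise of 6.85 (SE 0.659, limma adjusted p 1.4e-05). The groups did not overlap at either member. On the other 5hmC arrays ATATAATA lay between -1.01 and 1.54 and ATAATAAT between 0.0357 and 2.36.

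The 43 members that rose held 0 to 5 adenines, with a median of 3. Of them, 33 contained TTAT or its reverse complement ATAA, as 136 of the 255 members did, so that 24.3% of the members with this word rose and 10 of the 119 without it. None of the 47 members with AAAA rose, while 5 of the 48 with TTTT did. In 14 of the 43 the reverse complement was called higher too. Only 11 of the 43, TTATATAA included, had a probe that carries TTATATAA, so leaving out such probes changed nothing for the others. Without those probes, 42 members still had probes and 41 of them had a positive change of their probe median. The median change was then 0.18 on the log2 scale against 0.19 with all probes. TTTATATA, which has such probes, went from 0.129 to -0.0334. The 43 were chosen for their rise on these same arrays.

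The comparison of CEBPB(V285A) with wild-type CEBPB on 5hmC shares the CEBPB(V285A) 5hmC arrays with the one above. Here 32 members were higher and 1 lower, while 2.60% of all 8-mers were called in either direction (1.92% higher and 0.687% lower). The rises ran from 2.38 to 30.4 with a median of 4.51. Besides TTATATAA the largest named ones were ATATAATA, with 12.8 and 8.12 against -0.0919 and -0.0422, a difference of 10.5 (SE 1.08, limma adjusted p 0.00013), and TAATAATT, with 8.92 and 7.92 against 1.38 and 1.26, a difference of 7.10 (SE 0.617, limma adjusted p 4.6e-05). The member that fell was TATAAAAA, with 2.40 and 0.526 against 5.71 and 3.92 (-3.35, SE 0.782, limma adjusted p 0.037), which has 6 adenines. The runs differ here too, 534 against 535, and without either CEBPB array 17 members were called.

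CREB1 changed differently from C to 5hmC. In this comparison 12 members rose and 5 fell, 6.67% of the 255, where 9.58% of all 8-mers were called in either direction (4.31% higher and 5.27% lower). The 12 that rose have 1 to 3 adenines, and the 5 that fell have 6 or 7. The largest fall was at AATTAAAA, from 3.69 and 3.67 on C to -1.06 and -0.760 on 5hmC (-4.59, SE 0.585, limma adjusted p 0.00047). TAAAAAAA fell from 3.10 and 3.68 to -0.0622 and -0.154 (-3.50, SE 0.671, limma adjusted p 0.0067) and AATATAAA by 2.46 (SE 0.698, limma adjusted p 0.041). TTATTTAA rose from -0.916 and -1.48 to 2.24 and 2.50 (3.57, SE 0.991, limma adjusted p 0.038), TTTAATTA from 0.488 and 0.531 to 3.93 and 3.69 (3.30, SE 0.809, limma adjusted p 0.022) and TTTTATTT by 3.21 (SE 0.886, limma adjusted p 0.037).

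These CREB1 changes followed adenine number, the same axis on which runs 470 and 535 differed. The CREB1 arrays on C had run 470 and those on 5hmC run 535, so run and form cannot be told apart here. With base composition regressed out, 3 members rose and 8 fell. With run as a random block, 1 rose and 1 fell. Leaving out either array of CREB1 on C or 5hmC left 1 to 3 called members in all, and leaving out CREB1(A297V) 5hmC replicate 1 or 4, which enter the shared spread, gave 29 or 32. Without CEBPB 5hmC replicate 1 or 2 there were 11. AATTAAAA stayed called in all of these fits.

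CEBPB(V285A) on 5mC against C changed at 3 members, all higher, while 6.50% of all 8-mers were called in either direction (3.01% higher and 3.49% lower). ATAATTTT rose from 0.546 and 0.129 to 4.52 and 6.86 (5.35, SE 1.09, limma adjusted p 0.0062) and TAATATTT from 2.50 and 2.02 to 5.42 and 6.89 (3.90, SE 0.681, limma adjusted p 0.0019). The third was TAATTTTT (1.79, limma adjusted p 0.025), left out of the named members because it shares 7 bases in a row with ATAATTTT. On the other arrays ATAATTTT reached 5.19 on CEBPB(V285A) 5hmC replicate 1 and at most 3.40 with another protein. Leaving out CEBPB(V285A) C or 5mC replicate 2 left 1 called member, leaving out either CEBPB(V285A) 5hmC array gave 6, and the runs of the groups, 458 and 457, differ.

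Comparisons within a single run gave few calls. CREB1 on 5mC against C had 0 members called, with 11 at an unadjusted p under 0.05 (0.826% of all 8-mers called); its 5mC group is 1 array, which the p does not test. CREB1(A297V) on 5mC against C had 0 members called, while 0.0336% of all 8-mers were called. At an unadjusted limma p under 0.05 it had 12 members, 4.71%, against 10.6% of all 8-mers. On its 5mC arrays 23.1% and 16.2% of spots were not above local background. CREB1(A297V) against CREB1 on C had 0 called, while 1.53% of all 8-mers were called. Unadjusted, it had 9 members, 3.53%, against 10.7% of all 8-mers. In run 535, CEBPB against CREB1 on 5hmC had 6 members higher and 1 lower (3.34% of all 8-mers in either direction, 0.917% higher and 2.42% lower). AAATAATA was higher by 4.31 (5.83 and 4.42 against 0.746 and 0.887, SE 1.02, limma adjusted p 0.033), AAATTTTA by 3.33 (SE 0.821, limma adjusted p 0.042) and AAATATTA by 3.09 (SE 0.695, limma adjusted p 0.026). ATATTTAT was lower, at 0.758 and 0.351 against 3.97 and 4.22 (-3.54, SE 0.488, limma adjusted p 0.00095). Without any 1 of these 4 arrays 1 member was called, ATATTTAT, and without an array on C or 5mC other than CREB1 5mC 3 or 4 were. Without CREB1(A297V) 5hmC replicate 1 there were 11.

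Among the 2 remaining comparisons, CEBPB(V285A) against CREB1 on C called 0 members, while 0.926% of all 8-mers were called. At an unadjusted limma p under 0.05 it had 35 members, 13.7%, against 8.10% of all 8-mers. CREB1(A297V) on 5hmC against C also called 0 members, while 0.343% of all 8-mers were called. Unadjusted, it had 36 members, 14.1%, against 15.8% of all 8-mers. The first had 1 or 2 called members without a CREB1(A297V) 5mC array, a CEBPB(V285A) 5hmC array or CREB1(A297V) 5hmC replicate 2, 3 or 4, and a median difference of 0.423 over the members. On probe medians of log2 signal, 13 or 19 members were called higher in it, TTATATAA among them (limma adjusted p 7.2e-05 with normexp background correction and 1.2e-06 with dim spots removed). Its groups lay in different runs, 457 and 470, so run and protein cannot be told apart in it. The second became 16 members when CREB1(A297V) 5hmC replicate 1 was left out and 1 without replicate 2.

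Whether the response to 5hmC differed between proteins was tested as an interaction. Against CREB1, the C-to-5hmC difference of CEBPB(V285A) was called at 14 members, while 1.98% of all 8-mers were called, and against CREB1(A297V) at 12, while 2.17% were. Of the first 14, 13 were higher in CEBPB(V285A) and ATATTTAT was lower. TTATATAA was not among them (17.0, SE 5.17, limma adjusted p 0.13 against CREB1, and 17.8, SE 4.84, limma adjusted p 0.087 against CREB1(A297V)). For 5mC, 2 members were called between CEBPB(V285A) and CREB1(A297V) (3.49% of all 8-mers), TAATATTT and TAATTTTT. It was 0 between CEBPB(V285A) and CREB1 (0.986% of all 8-mers) and 0 between CREB1(A297V) and CREB1 (0.146%). The response of CREB1(A297V) to 5hmC differed from that of CREB1 at 0 members (0.711% of all 8-mers). For CEBPB(V285A), and for CREB1 on 5hmC, the run changed with the form of cytosine, so the 2 cannot be told apart in these terms.

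The other self-complementary members gave a measure of how far TTATATAA stood apart. The matrix holds all 16 A/T-only palindromes. On the CEBPB(V285A) 5hmC arrays the 15 others ranged from -0.0411 (ATATATAT) to 6.87 (ATAATTAT), and on the C arrays from 0.119 (TTTTAAAA) to 4.09 (ATAATTAT). ATAATTAT, the next highest, contains ATAAT and ATTAT and scored 4.73 and 4.45 on 5mC, close to TTATATAA there. With CREB1 on C the highest palindrome was AATATATT, at 3.60 and 0.786, and with CEBPB on 5hmC it was AAAATTTT, at 2.67 and 4.62.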

How the data were processed

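Members, lists and the naming rule were chosen with earlier results of these data known. The matrix deposited by the authors holds a score per 8-mer and array, named a Z-score per the file headers and made from the spot signals by steps not given in the sources used here. The spot files hold, per the file headers, median signal intensity and local background intensity, not subtracted. The name of an 8-mer is the printed sequence read backwards (r with probe medians 0.579 to 0.869 over all 8-mers and arrays, at most 0.596 for any other reading), so its complement is printed here as the synthesised strand. That the printed strand is the template was assumed and not tested; otherwise each member trades places with its reverse complement, and palindromes stay as they are.

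All Z-scores were fitted in limma 3.58.1 (R 4.3.3) with 21 arrays, 1 coefficient per group, a trended variance prior (11 residual degrees of freedom), two-sided tests, with Benjamini-Hochberg adjustment over 65535 8-mers and a threshold of 0.05. The fit gives every group the same spread at an 8-mer. Python 3.11.15 was used for descriptions. In simulated data for CEBPB(V285A) 5hmC against C over 65535 8-mers, 23.9% of shifts of 2 Z-score units, 91.0% of 4 and 100% of 8 were called, and 6 of 65335 unshifted 8-mers. Named 8-mers were the 16 palindromes, the 8-mer of T alone, the 3 highest of each group, and up to 3 rises and 3 falls of each comparison without overlap of arrays, skipping reverse complements and 8-mers sharing 7 bases in a row. Alternatives were asinh and quantile scales, probe medians with normexp (offset 50) or with dim spots removed, at least 8 probes, replicate and run blocks, single runs, no variance trend, leaving out each array, and base composition regressed out, the last chosen after seeing the data. Same-numbered replicates were checked for pairing: their deviations correlated at r -0.381 to 0.193, so the numbers were not taken to pair arrays.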

Additional observations from a re-analysis of the deposited data

Results flagged for a closer look

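Results stood out where the response to a modified cytosine differed between proteins at a named member, by the interaction term of the limma fit. At ATATAATA the C-to-5hmC difference of CEBPB(V285A) exceeded that of CREB1 by 7.81 (limma adjusted p 0.016) and that of CREB1(A297V) by 7.83 (limma adjusted p 0.0082). At ATAATAAT it did so by 6.63 (limma adjusted p 0.0020) and by 6.53 (limma adjusted p 0.00088). At TAATATTT the C-to-5mC difference of CEBPB(V285A) exceeded that of CREB1(A297V) by 3.90 (limma adjusted p 0.039). All 6 CEBPB(V285A) arrays on these forms came from other runs than the arrays they were set against, except CREB1(A297V) 5hmC replicate 4. In CREB1(A297V) on 5hmC, the group of 4 arrays, 0 of 21 values checked had 1 array standing apart from the other 3, and chance gives about 1 in 20.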

How the results depend on the processing

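Counts of called members kept within 1.5 times of the value reported under the settings not named here. From C to 5hmC, CREB1 (17 members) had 39 on the asinh scale, 7 after quantile normalization, 96 on normexp probe medians, 74 with dim spots removed, 2 with run as a random block and 11 with base composition regressed out, and CEBPB(V285A) (43) had 10, 19, 21, 20 and 16 under the first 5 of these. CEBPB(V285A) on 5mC (3) had 0 after quantile normalization, 14 with normexp, 19 with dim spots removed, 6 at 8 probes or more, 1 with the run block, 5 without the variance trend and 8 with composition regressed out. CEBPB(V285A) against CEBPB on 5hmC (33) had 17 on asinh and 17 with the run block, and CEBPB against CREB1 on 5hmC (7) had 15 after quantile normalization, 34 with normexp, 28 with dim spots removed and 12 with composition regressed out. Of the comparisons with 0 calls, CREB1 5mC had 1 with normexp. CREB1(A297V) 5mC had 1 after quantile normalization and 7 with normexp, its 5hmC had 2 on asinh, 1 after quantile normalization and 60 with normexp, and against CREB1 on C it had 1 on asinh, 3 with normexp and 5 with dim spots removed. CEBPB(V285A) against CREB1 on C had 1 on asinh, 14 with normexp, 19 with dim spots removed, and 2 at 8 probes or more, without the trend, and with composition regressed out. The cause of these changes was not tested. The shares of all 8-mers called under each setting, or with each array left out, are not given here. These counts therefore do not show whether the members changed apart from the other 8-mers.

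With a replicate block, CREB1 5hmC had 59, CEBPB(V285A) 5mC 6, CEBPB(V285A) against CREB1 on C 2, CEBPB against CREB1 on 5hmC 18 and CEBPB(V285A) against CEBPB 51. The replicate numbers did not pair the arrays. Leaving out an array gave 1 to 32 for CREB1 5hmC, 1 to 6 for CEBPB(V285A) 5mC, 19 to 51 for its 5hmC, 0 to 16 for CREB1(A297V) 5hmC, 0 to 2 for CEBPB(V285A) against CREB1 on C, 1 to 11 for CEBPB against CREB1 and 17 to 45 for CEBPB(V285A) against CEBPB. The 2 other comparisons of CREB1(A297V), and CREB1 5mC, stayed at 0. Of 574 refits of the named members that changed, 484 kept the call and 90 lost it, and none changed sign. On CREB1(A297V) 5hmC replicates 1, 2 and 3, 25.1%, 56.1% and 26.1% of spots were not above local background. On CREB1(A297V) 5mC replicates 1 and 2 it was 23.1% and 16.2%. The part of this in the comparisons of CREB1(A297V) was not tested.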
